A study of Mus musculus with 8 samples.

Results

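Ependymal cells are the multiciliated cells that line the brain ventricles and move cerebrospinal fluid with their cilia. The paraventricular nucleus of the hypothalamus (PVN) borders the third ventricle, and ependymal cells are commonly recovered when it is dissected. Each cilium grows from a basal body, and multiciliated cells make these basal bodies in bulk while they differentiate, using parts of the mitotic cell-cycle machinery although they do not divide. A G2/M score summarises the expression of genes of the G2 phase and mitosis in a cell, and an S score does so for genes of DNA replication. Some products of G2/M genes also belong to centrosomes, spindle poles or microtubules, so a score above 0 does not by itself mark a dividing cell. Which genes entered the scores used here is not stated in the labels, so no tie between the score and cilia was tested.

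The cells described here are those that the authors' deposited annotation calls Ependymal, which are 2461 of 35672 cells, or 6.90%. The annotation divides them into 2 clusters, Ependymal_1 with 2167 cells (88.1%) and Ependymal_2 with 294 cells (11.9%). The deposited values used here are an annotation and 6 numbers per cell, so the expression of markers such as Foxj1, Ccdc153 and Tmem212 was not analysed here and the label could not be checked against them. The numbers are the unique molecular identifiers (UMIs, which count captured RNA molecules), the genes detected, the mitochondrial share of UMIs, a doublet score, an S score and a G2/M score.

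All mice were C57BL/6, and the PVN of each group was profiled as 1 droplet single-cell RNA library, giving 8 libraries. In the baseline cohort, aged 10 weeks, unstressed females and males were set against females and males given 15 min of acute restraint stress (ARS), with tissue taken 5 h later. In the second cohort, aged 11 weeks, unstressed females and males were set against females and males given chronic mild stress (CMS) for 21 days and then the same restraint and wait. The titles of these unstressed libraries also name CMS while their condition is given as control, so "CMS control" below means an unstressed library of that cohort, and cohort, age and any handling that differed cannot be told apart. The stressed libraries are therefore restraint alone in one cohort and chronic stress with restraint in the other. The sources used here do not say how many animals stand behind a library, so p-values measure the spread between libraries, which may be partly technical.

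The libraries held 3523 to 5777 cells and 9924892 to 15760435 UMIs, of which 772343 to 1515445 came from Ependymal cells. Ependymal cells carried 9.56% of all UMIs. Of 34942 distinct cell barcodes, 722 occurred in 2 or more libraries and marked 1452 cells (4.07%). Among Ependymal cells 99 (4.02%) had such a barcode, and 5 barcodes marked an Ependymal cell in more than 1 library.

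The Ependymal share of cells was similar in most libraries and did not change detectably with stress, sex or cohort. In the baseline cohort Ependymal cells made up 6.75% of the female control library (Clopper-Pearson 95% interval 6.10 to 7.44%), 7.69% of the male control (6.85 to 8.60%), 7.24% of the female ARS (6.58 to 7.93%) and 7.80% of the male ARS library (6.97 to 8.70%). The CMS cohort gave 7.13% of the female control library (6.40 to 7.92%), 4.95% of the male control (4.28 to 5.69%), 5.86% of the female stressed (5.23 to 6.55%) and 8.03% of the male stressed library (7.16 to 8.98%). These intervals cover counting error only. The male CMS control library was the lowest and its paired male stressed library the highest, so the widest stressed-to-control gap, 3.09 percentage points, lay in that 1 pair.

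Stressed libraries averaged 7.23% ± 0.974 Ependymal cells and control libraries 6.63% ± 1.19 (SD, n = 4 each), with the stressed library higher in 3 of 4 pairs and the ranges overlapping. The log2 fold was 0.12 (SE 0.23, adjusted p = 0.944, edgeR quasi-likelihood test on cell numbers with Benjamini-Hochberg adjustment over 17 types). For that comparison 0% of types passed the threshold of 0.05. Without the male CMS control library the log2 fold was -0.027, so its direction rested on that library.

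Females averaged 6.74% ± 0.625 and males 7.12% ± 1.46, a log2 fold of -0.065 (SE 0.23, edgeR adjusted p = 0.960) against 5.88% of types called. The CMS cohort averaged 6.49% ± 1.36 and the baseline cohort 7.37% ± 0.483, a log2 fold of -0.18 (SE 0.23, edgeR adjusted p = 0.562) against 17.6% of types called. Each difference was smaller than its SE, and the ranges overlapped.

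The response to stress was also compared between the sexes and between the cohorts. In the baseline cohort the stressed-to-control ratio of the Ependymal share was 1.07 in females and 1.01 in males. The same ratio in the CMS cohort was 0.822 in females and 1.62 in males. The female-minus-male difference of the log2 stress effects was -0.44 (SE 0.48, edgeR adjusted p = 0.871), and the CMS-minus-baseline difference was 0.13 (SE 0.52, edgeR adjusted p = 0.918), with 0% of types called in both. The ratios of the CMS cohort lay on either side of 1, but neither difference exceeded its SE.

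**Figure D1:**
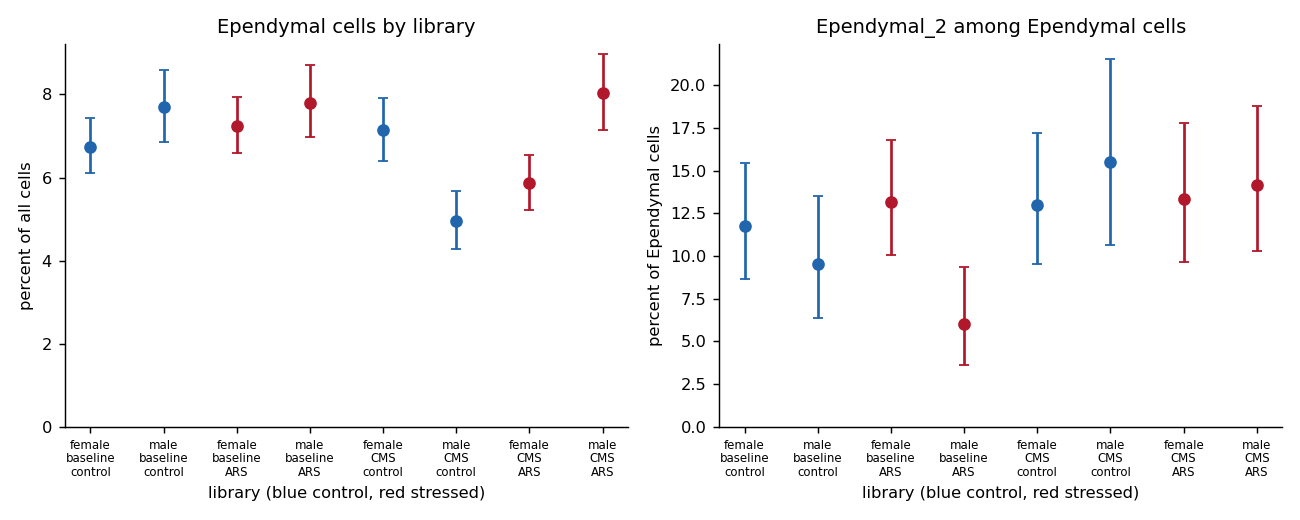
Left, Ependymal cells as a percent of all cells in each of 8 libraries; right, Ependymal_2 cells as a percent of Ependymal cells; blue marks control and red stressed libraries, and bars are Clopper-Pearson 95% intervals for counting error only. The male CMS control library is lowest on the left at 4.95%, and the male baseline ARS library is lowest on the right at 6.02%.

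The share depends on what else a library holds. Astrocytes, the most numerous type, made up 27.0% to 42.5% of a library, and the highest value was in the male CMS control library. With Astrocytes left out of the total, Ependymal cells made up 8.60% to 11.3% of cells. The male CMS control library was still the lowest, at 8.60%, with 11.0% in its paired male stressed library. Tanycytes, the ependymoglial cells of the floor and lower walls of the same ventricle, made up 0.813% to 3.81% of a library. Across the 8 libraries no relation of the Ependymal share to the Tanycyte share was detected (Pearson r = 0.0174, exact permutation p = 0.968; Spearman rho = -0.190, exact permutation p = 0.665; adjusted over 3 relations 0.968 and 0.665). Without the female baseline control and female baseline ARS libraries, whose Tanycyte shares were farthest from the median, r was -0.259 (n = 6). Without the male CMS control library alone it was -0.279, and without the female baseline ARS library alone -0.186.

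Neither of the 2 clusters taken singly gave a call in these tests. Ependymal_1 made up 6.40% ± 0.980 of stressed and 5.82% ± 1.18 of control libraries, and Ependymal_2 made up 0.835% ± 0.283 and 0.804% ± 0.0858 (n = 4 each). For Ependymal_1 the log2 folds were 0.13 for stress, -0.089 for female against male and -0.24 for CMS against baseline, with SEs of 0.22. For Ependymal_2 they were 0.045, 0.18 and 0.29, with SEs of 0.28. The lowest edgeR adjusted p among these 6 folds was 0.528, against 0% of 32 clusters called for stress and sex and 3.12% for cohort. The sex difference of the stress effect was -0.49 (SE 0.47) for Ependymal_1 and -0.017 (SE 0.61) for Ependymal_2, and the cohort difference was 0.11 (SE 0.50) and 0.28 (SE 0.60), with 0% of clusters called.

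The clusters differed in RNA content. This comparison is a description with no test, since cluster labels are made from the expression of the same cells. Ependymal_1 cells had a median of 3765 ± 357 UMIs and Ependymal_2 cells 799.7 ± 75.6 (mean of library medians ± SD, n = 8). The ratio was 4.73 ± 0.522 and lay between 3.98 and 5.61 in the 8 libraries, so the library ranges of the clusters were far apart. Genes detected per cell differed by a ratio of 3.53 ± 0.344. Among the 33 clusters of the study Ependymal_2 ranked 32nd in median UMIs, and Ependymal_1 ranked 8th.

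Depth nearly separated the clusters. Of Ependymal cells with under 1000 UMIs, 98.5% were in Ependymal_2, whereas of those with 2000 or more UMIs 0.677% were. Within Ependymal_2, 69.0% of cells had under 1000 UMIs and another 26.2% had 1000 to under 2000 UMIs. Within Ependymal_1, 94.7% of cells had 2000 or more.

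Ependymal_2 also carried a larger mitochondrial share. A high share of mitochondrial transcripts with few UMIs is a common sign of a damaged or leaking cell, and whether this applies to Ependymal_2 was not tested. In the baseline cohort the median mitochondrial share of Ependymal_2 was 5.40% in the female control, 8.57% in the male control, 4.35% in the female ARS and 6.78% in the male ARS library. In the CMS cohort it was 10.5%, 7.88%, 13.4% and 9.70% in the same order. Ependymal_1 lay between 4.15% and 4.99% throughout. Ependymal_2 exceeded Ependymal_1 in 8 of 8 libraries by 3.80 ± 2.81 percentage points, with a smallest gap of 0.165 points in the female baseline ARS library and a largest of 8.92 points in the female CMS stressed library. In Ependymal_2, 40.7% ± 16.2 of cells had a mitochondrial share of 10% or more, compared with 3.15% ± 0.944 in Ependymal_1. Among cells with 1000 to under 2000 UMIs the gap in medians was 2.10 ± 2.80 points, less than its spread. It was above 0 there in 6 of 8 libraries. From 1000 to under 1250 UMIs the pooled medians were 9.67% in 10 Ependymal_1 and 9.85% in 43 Ependymal_2 cells. From 1250 to under 1750 UMIs they were 6.30% and 7.28% in the same order.

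The doublet score, a number the authors deposited to mark barcodes that may hold 2 cells, differed as well. It was 0 in 97.6% of Ependymal_2 and 7.29% of Ependymal_1 cells. Ependymal_1 was higher by 1.18 ± 0.109 in mean score (n = 8). The clusters were closer at similar depth. Among cells with 1000 to under 2000 UMIs the difference was 0.338 ± 0.268, above 0 in 7 of 8 libraries. From 1250 to under 1750 UMIs the score was 0 in 93.0% of Ependymal_1 and 96.9% of Ependymal_2 cells. No cell was removed on this score here. The mean S score differed little, by 0.00356 ± 0.00678 between Ependymal_1 and Ependymal_2, which is less than the spread between libraries.

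**Figure D2:**
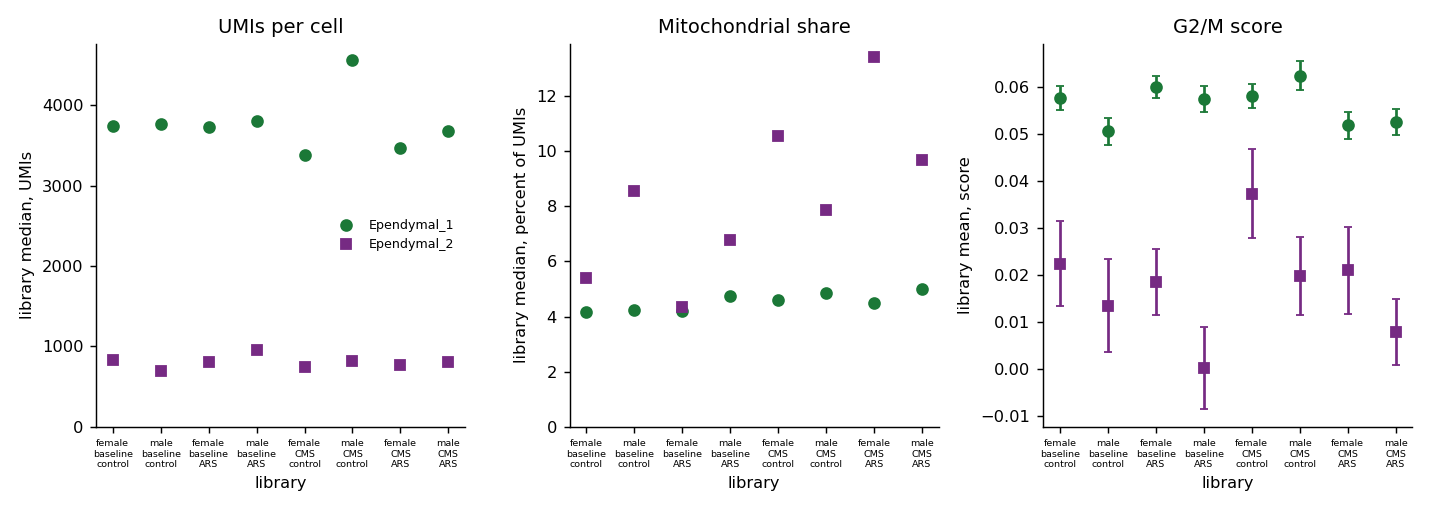
Ependymal_1 (green circles) and Ependymal_2 (purple squares) in each of 8 libraries, as the median number of UMIs per cell, the median mitochondrial percent of UMIs and the mean G2/M score; bars in the score panel are the standard error over cells. Ependymal_1 has more UMIs and a higher G2/M score in 8 of 8 libraries, and Ependymal_2 a higher mitochondrial percent in 8 of 8.

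Ependymal cells had the highest mean G2/M score of the 17 annotated types, in the pooled cells and in 8 of 8 libraries. This ranking is also a description, since types are annotated from expression. The scores have no unit and no true zero of expression, so differences are given and no folds. Library means in the baseline cohort were 0.0535 in the female control, 0.0470 in the male control, 0.0546 in the female ARS and 0.0540 in the male ARS library. Those in the CMS cohort were 0.0555, 0.0558, 0.0477 and 0.0463 in the same order. The mean over libraries was 0.0518 ± 0.00406 (n = 8), and the lowest Ependymal library lay above the highest library mean of any other type, which was 0.0337 for Tanycytes in the female CMS control library.

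Tanycytes were the next type with 0.0159 ± 0.00880 and were the highest other type in 7 of 8 libraries. Oligodendrocyte precursor cells (OPC), a type known to keep dividing in the adult brain, averaged -0.00397 ± 0.0121. Astrocytes averaged -0.0117 ± 0.00140. The plot of the score by type shows a gap between Ependymal cells and the other types rather than a gradual order.

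**Figure D3:**
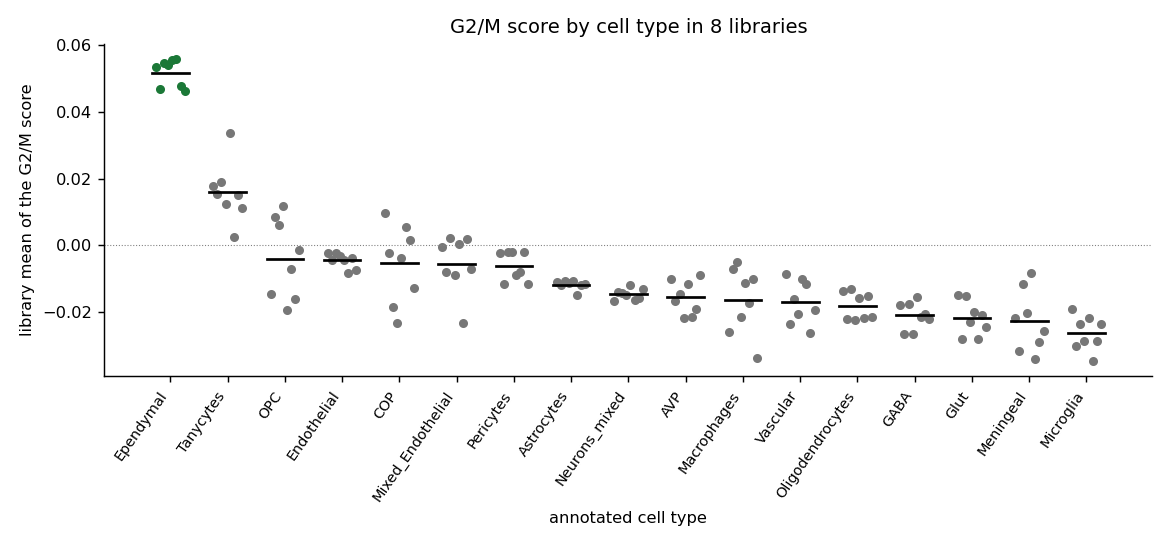
Mean G2/M score of each of 17 annotated types, with 1 point per library and a bar at the mean of the libraries. The 8 Ependymal points lie between 0.0463 and 0.0558, above every point of the other types.

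The high mean came from most of the cells and not from a few with extreme scores. Over the 2461 cells the score had a mean of 0.0519, a median of 0.0520 and an SD of 0.0470, and it ran from -0.0740 to 0.232. The score was above 0 in 86.6% of Ependymal cells, in 63.2% of Tanycytes and in 31.4% of OPC. By library the share of Ependymal cells above 0 was lowest in the female CMS stressed library at 84.6% (95% interval 79.9 to 88.5%) and highest in the female CMS control library at 90.4% (86.7 to 93.4%).

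The cells with the highest G2/M scores in the study were of other types. In all, 22 cells exceeded the highest Ependymal score, of which 12 were Microglia, 8 OPC, 1 Neurons_mixed and 1 Pericytes, and 20 of the 22 also had an S score above 0. The highest OPC score was 1.61. Thus OPC had a low median, -0.0203, with a long upper tail, whereas Ependymal cells had a shifted centre and no such tail.

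**Figure D4:**
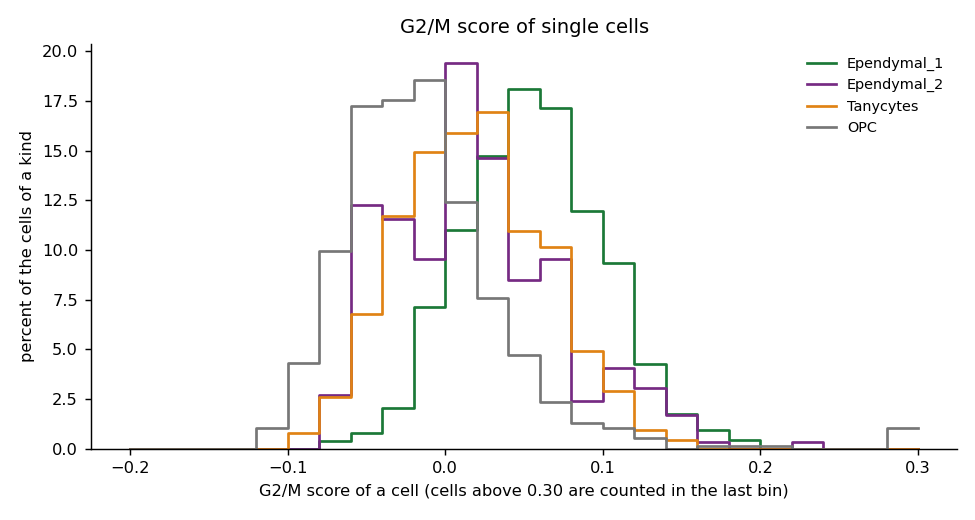
Distribution of the G2/M score over single cells of Ependymal_1, Ependymal_2, Tanycytes and OPC, as the percent of the cells of each kind per bin; cells above 0.30 are counted in the last bin. The Ependymal_1 distribution has its mean at 0.0564 and Ependymal_2 at 0.0191, and OPC fill the last bin while Ependymal cells do not reach it.

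The S score did not follow the G2/M score. Ependymal cells had a mean S score of -0.00107 and ranked 9th of 17 types, with OPC at the top at 0.0359. Their library means ran from -0.00459 to 0.00285, on both sides of 0. Within libraries the Spearman correlation of the S and G2/M scores over Ependymal cells was 0.0241 ± 0.0426 and was above 0 in 5 of 8 libraries. Phases of the cell cycle were not called here, and no division is read from these scores.

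The high score lay mainly in Ependymal_1, and Ependymal_2 was close to Tanycytes when cells of all depths were pooled. Ependymal_1 had a mean of 0.0564 and Ependymal_2 of 0.0191, and they ranked 1st and 2nd of 33 clusters, followed by Tanycytes at 0.0177. The score was above 0 in 89.7% of Ependymal_1 cells, 63.9% of Ependymal_2 cells and 63.2% of Tanycytes. The median was 0.0155 in Ependymal_2 and 0.0162 in Tanycytes. Their depth was unlike, with medians of 799.5 and 3385 UMIs. Under 1000 UMIs the pooled mean score was 0.0179 in 203 Ependymal_2 cells and -0.00299 in 35 Tanycytes. From 1000 to under 2000 UMIs it was 0.0251 in 77 Ependymal_2 cells and 0.0127 in 73 Tanycytes. Ependymal_1 exceeded Ependymal_2 in 8 of 8 libraries, by 0.0388 ± 0.0107, with differences from 0.0209 to 0.0573. Among cells with under 10% mitochondrial UMIs the difference was 0.0368 ± 0.0134.

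Part of this difference moved with depth. In the bin of 1000 to under 2000 UMIs, the only one both clusters filled in 8 of 8 libraries, Ependymal_1 (111 cells) averaged 0.0486 ± 0.0185 and Ependymal_2 (77 cells) 0.0259 ± 0.0161. The difference there was 0.0227 ± 0.0207, about as large as its spread, and Ependymal_1 was higher in 7 of 8 libraries. The clusters were still unequal in depth inside that bin, with medians of 1667 and 1218 UMIs. In the narrower range of 1250 to under 1750 UMIs, 57 Ependymal_1 cells averaged 0.0484 (SD over cells 0.0485) and 32 Ependymal_2 cells 0.0345 (SD 0.0497). From 1000 to under 1250 UMIs the order was the other way, with 10 Ependymal_1 cells at 0.0124 and 43 Ependymal_2 cells at 0.0218. At matched depth the clusters therefore overlapped widely, and these data hold few cells with which to compare them.

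Over all Ependymal cells the G2/M score was higher in deeper cells. Averaged over 8 libraries it was 0.0163 ± 0.0143 under 1000 UMIs (206 cells), 0.0385 ± 0.0135 from 1000 to under 2000 (188 cells) and 0.0508 ± 0.00439 from 2000 to under 4000 (1167 cells). It was 0.0639 ± 0.00327 from 4000 to under 8000 (824 cells) and 0.0558 ± 0.0134 at 8000 or more (76 cells). The mean was higher in each successive bin up to the fourth and not in the last. The difference between the top and bottom bins was 0.0395 ± 0.0212 and was positive in 8 of 8 libraries.

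The increase was not only the step between clusters. From the 2000 to under 4000 bin to the 4000 to under 8000 bin, both almost wholly Ependymal_1, the score differed by 0.0131 ± 0.00449, in the same direction in 8 of 8 libraries. In deciles of UMIs over all Ependymal cells the mean was 0.0192 in the lowest decile, which was 97.2% Ependymal_2, and 0.0478 in the second. It lay between 0.0477 and 0.0668 in the other deciles, with the maximum in the ninth. The SD over cells narrowed from 0.0543 in the lowest to 0.0354 in the highest decile, and the share of cells above 0 went from 64.8% to 95.5%.

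Correlations over cells gave the same picture and are given without a test, because cells of a library share its preparation. The Spearman correlation of UMIs and the G2/M score within a library was 0.246 ± 0.0440 for Ependymal cells and 0.152 ± 0.0550 for Ependymal_1, above 0 in 8 of 8 libraries for both. For Ependymal_2 it was -0.00116 ± 0.213, above 0 in 4 of 8. It was 0.0899 for Tanycytes and -0.00747 for Astrocytes.

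Ependymal cells also stood above other types at matched depth, with exceptions. In each of the 5 UMI bins Ependymal cells had the highest pooled mean among the types with at least 20 cells there. From 4000 to under 8000 UMIs OPC came close in the mean only, with 0.0628 against 0.0642. The OPC median there was -0.0107 against 0.0624, and 38.8% of OPC scored above 0 against 95.1% of Ependymal cells. The OPC mean also varied widely between libraries. The difference of means was therefore -0.000428 ± 0.0935 and favoured Ependymal cells in 4 of 8. From 2000 to under 4000 UMIs, where Ependymal cells were most numerous, they exceeded Tanycytes by 0.0340 ± 0.0128, Astrocytes by 0.0617 ± 0.00355 and OPC by 0.0662 ± 0.00964, each in 8 of 8 libraries. Under 1000 UMIs the excess over Astrocytes was 0.0267 ± 0.0146 and positive in 7 of 8 libraries. That over Tanycytes was 0.0111 ± 0.0253 and positive in 4 of the 6 libraries that held both. It was negative in the female CMS stressed and male baseline ARS libraries, which held 1 Tanycyte each at that depth. Pooled over libraries the means there were 0.0186 for Ependymal cells and -0.00299 for 35 Tanycytes. Under 1000 UMIs, where Ependymal cells were nearly all Ependymal_2, the excess over Tanycytes was thus less than its spread. That spread includes the libraries with 1 Tanycyte, so it cannot show that the types score alike. From 1000 to under 2000 UMIs the excess over Tanycytes was 0.0272 ± 0.0124 and positive in 8 of 8 libraries, with Ependymal cells of both clusters.

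**Figure D5:**
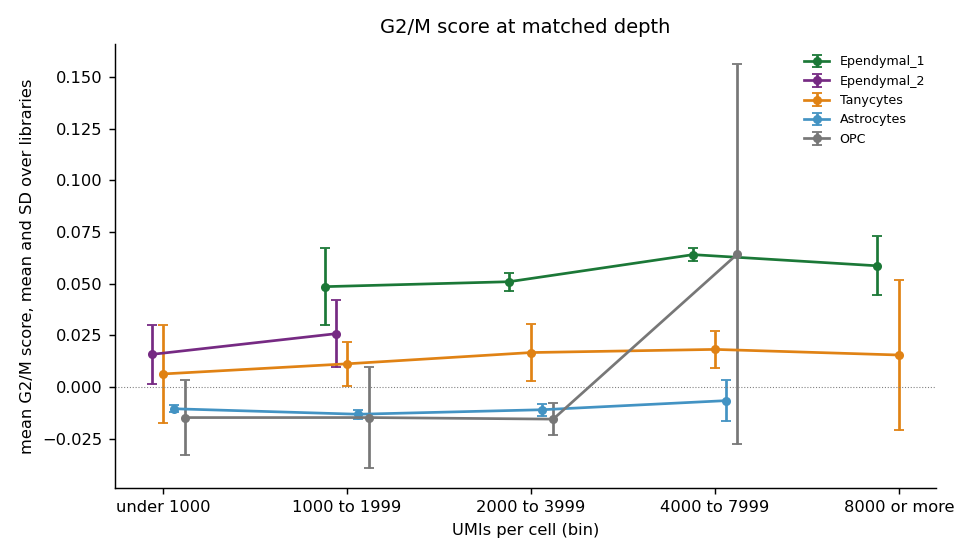
Mean G2/M score in bins of UMIs per cell for Ependymal_1, Ependymal_2, Tanycytes, Astrocytes and OPC, as the mean and SD over libraries. Ependymal_1 goes from 0.0510 at 2000 to under 4000 UMIs to 0.0641 at 4000 to under 8000, while Tanycytes and Astrocytes stay lower; OPC at 4000 to under 8000 UMIs vary widely between libraries.

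Across libraries no relation of depth and score was detected. Over the 8 libraries the mean Ependymal G2/M score and the median UMIs of Ependymal cells had a Pearson r of 0.296 (exact permutation p = 0.493) and a Spearman rho of 0.262 (exact permutation p = 0.536), with adjusted values of 0.739 and 0.665. Without the male and female CMS control libraries, the farthest from the median depth, r was 0.372 (n = 6). These libraries moved r in opposite ways: it was -0.0611 without the male CMS control library alone and 0.587 without the female one alone.

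A few Ependymal_2 cells were deep. In 6 libraries 7 Ependymal_2 cells had 4000 or more UMIs, and they were singled out after their values were seen. Their mitochondrial share was 0.0246% to 3.20%, and 5 of the 7 lay under 1%, compared with 1 of 893 Ependymal_1 cells of that depth. Their G2/M scores ran from -0.0218 to 0.0287, below the mean of Ependymal_1 in each of the 7. Ependymal_2 therefore held a small number of cells unlike its bulk in depth and mitochondrial share. The doublet score was 3.02 in the male baseline control cell, 3.62 in the male CMS control cell and 3.18 in the male CMS stressed cell. It was also 3.18 in a female baseline ARS cell, and 0 in the rest of these deep cells. The scores above 0 all exceeded 2.86, the point above which the highest 10% of all cells lay. Whether these cells were doublets was not tested.

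The G2/M score of Ependymal cells did not pass the test with stress, sex or cohort. Stressed libraries averaged 0.0506 ± 0.00427 and controls 0.0529 ± 0.00409 (n = 4 each), a difference of -0.00229 (SE 0.00310, adjusted p = 0.914, limma on library means with adjustment over 16 types, 0% called). The stressed library was higher in 2 of 4 pairs, those of the baseline cohort, and lower in those of the CMS cohort. Whether the stress effect on this score differed between the cohorts was not tested. Females averaged 0.0528 ± 0.00350 and males 0.0508 ± 0.00484, a difference of 0.00204 (SE 0.00310, limma adjusted p = 0.573) against 25% of types called. The CMS cohort averaged 0.0513 ± 0.00503 and the baseline cohort 0.0523 ± 0.00354, a difference of -0.000961 (limma adjusted p = 0.945, 0% called). The stress effect differed between females and males by -0.00205 (SE 0.00671, limma adjusted p = 0.901, 0% called). The 95% limma intervals were -0.00997 to 0.00538 for stress, -0.00563 to 0.00971 for sex and -0.00863 to 0.00671 for cohort, each bound nearer to 0 than the excess of 0.0340 over Tanycytes from 2000 to under 4000 UMIs.

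The share of Ependymal cells scoring above 0 gave no call either. It was 2.24 percentage points lower in stressed than control libraries on average (higher in 2 of 4 pairs; exact sign-flip permutation p = 0.5, two-sided). The sex and cohort differences were 0.106 and 1.80 points (exact sign-flip permutation p = 0.875 and 0.5). With 4 pairs this test cannot go below 0.13.

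For Ependymal_2 taken alone the G2/M score passed the test for sex and for stress, in a fit added after the data were seen. Its mean G2/M score in the baseline cohort was 0.0224 in the female control, 0.0134 in the male control, 0.0184 in the female ARS and 0.000113 in the male ARS library. In the CMS cohort it was 0.0373, 0.0197, 0.0210 and 0.00778 in the same order. The female library was higher in 4 of 4 pairs and the stressed library lower in 4 of 4, with overlapping ranges. The female-minus-male difference was 0.0145 (SE 0.00226, limma adjusted p = 0.0111, 37.5% of types called), and the stressed-minus-control difference was -0.0114 (SE 0.00226, limma adjusted p = 0.0420, 6.25% called). The CMS-minus-baseline difference was 0.00786 (limma adjusted p = 0.112, 0% called).

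Each Ependymal_2 library mean rests on 18 to 55 cells and has a standard error over cells of 0.00706 to 0.00986. That spread of cells alone gives a difference between 4 and 4 libraries a standard error of 0.00613, larger than the 0.00226 that the fit took from the spread between libraries. The difference by stress lost its call without any of 6 single libraries (the male baseline control, the male baseline ARS or any of the 4 CMS libraries), with limma adjusted p-values up to 0.205, and with matched pairs as a block (0.129). The difference by sex lost its call only without the male baseline ARS library (limma adjusted p = 0.0674). In Ependymal_1 females averaged 0.0569 ± 0.00356 and males 0.0558 ± 0.00531. Whether the sex difference itself differed between the clusters was not tested.

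The mitochondrial share of Ependymal cells was higher in the CMS than in the baseline cohort. Library medians in the baseline cohort were 4.18% in the female control, 4.29% in the male control, 4.19% in the female ARS and 4.78% in the male ARS library. The CMS cohort had 4.70%, 4.94%, 4.60% and 5.07% in the same order. The CMS library was higher in 4 of 4 pairs, although the male baseline ARS library reached into the CMS range. The means were 4.83% ± 0.214 and 4.36% ± 0.282, a difference of 0.467 percentage points (SE 0.109, adjusted p = 0.0435, limma on library medians, 18.8% of types called). Endothelial cells and Macrophages were called in the other direction, at -0.288 and -0.688 points.

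This call was close to the threshold. It was lost without any 1 of the libraries except the male baseline ARS library (limma adjusted p 0.0334 without that library and 0.0544 to 0.164 without another). Among Ependymal_1 cells alone the difference was 0.405 points (limma adjusted p = 0.0677), and among Ependymal_2 cells alone it was 4.12 points (0.175). Between stressed and control libraries the difference was 0.128 points (SE 0.109, limma adjusted p = 0.673, 0% called). Females lay below males in 4 of 4 pairs, by 0.350 points on average (SE 0.109, limma adjusted p = 0.367, 0% called), and the sex difference of the stress effect was -0.361 points (SE 0.161, limma adjusted p = 0.613, 0% called).

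The share of Ependymal_2 among Ependymal cells had a higher mean in the CMS cohort, a difference that gave no call and depended on which cells were counted. In the baseline cohort it was 11.7% in the female control (95% interval 8.66 to 15.4%), 9.51% in the male control (6.36 to 13.5%), 13.2% in the female ARS (10.1 to 16.8%) and 6.02% in the male ARS library (3.61 to 9.35%). In the CMS cohort it was 13.0% (9.53 to 17.2%), 15.5% (10.6 to 21.5%), 13.4% (9.67 to 17.8%) and 14.1% (10.3 to 18.7%) in the same order. The CMS libraries averaged 14.0% ± 1.11 and the baseline libraries 10.1% ± 3.11, with CMS higher in 4 of 4 pairs and slightly overlapping ranges. The exact two-sided sign-flip permutation p was 0.13, the smallest that 4 pairs allow, for a mean difference in log2 odds of 0.585. Among cells with under 10% mitochondrial UMIs that difference was 0.00747 (exact permutation p = 1), and among cells with at least 1000 UMIs it was 0.208 (exact permutation p = 0.5). Without the pair of the male baseline ARS and male CMS stressed libraries it was 0.333. The same test gave 0.75 for stress and 0.625 for sex.

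The share of this low-UMI cluster was also set beside the depth of the rest of each library. The Ependymal_2 share and the median UMIs of all cells that were not Ependymal had a Pearson r of -0.647 (exact permutation p = 0.0886, adjusted 0.266) and a Spearman rho of -0.429 (exact permutation p = 0.299, adjusted 0.665) over 8 libraries. Without the male baseline ARS and female CMS control libraries r was -0.171 (n = 6). It was -0.143 without the male baseline ARS library alone and -0.694 without the female CMS control library alone, so the relation rested on the male baseline ARS library.

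The remaining measures gave no call. Ependymal cells of females had fewer UMIs than those of males in 4 of 4 pairs, with library medians averaging 3362 ± 208 and 3780 ± 331, a log2 difference of -0.17 (SE 0.10, limma adjusted p = 0.497, 0% called). Stress and cohort moved the UMIs by -0.056 and -0.041 on the log2 scale (SE 0.10 for both), against 0% and 18.8% of types called. Genes per cell differed by -0.047 for stress, -0.098 for female against male and -0.020 for CMS against baseline (log2, SE 0.080), against 0%, 6.25% and 25% of types called. The S score was higher in the stressed library in 4 of 4 pairs, by 0.00231 on average (SE 0.00159, limma adjusted p = 0.457, 0% called). Mean doublet scores differed by 0.00754 for stress, -0.0484 for sex and 0.0474 for cohort (SE 0.0421), with 0% of types called.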

How the data were processed

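The tissue was dissociated with papain and made into 10x Genomics 3' v2 libraries, per the labels. The authors used Cell Ranger 3.0.2 and 3.1.0 with mm10, and Seurat 3.1.3, per the submitters' processing notes. UMIs and genes per cell are whole-number counts as deposited. The deposited mitochondrial share is a fraction, given here in percent. The 3 scores (doublet, S, G2/M) are as the authors deposited them. The tools behind the scores and any filter on cells were not stated in the labels. No cell was removed here, and 0 cells lacked a library. The experiment label for acute stress was taken as the baseline cohort.

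Cell numbers per type (17) and per cluster with at least 80 cells (32) were tested with edgeR 4.0.16 in R 4.3.3, and library medians or means of the 16 types with 10 or more cells per library with limma 3.58.1. The models held sex, cohort and exposure over 8 libraries, and libraries were the replicates. Benjamini-Hochberg adjustment was made within a comparison and measure. The edgeR fit of types had 71.9 prior degrees of freedom, so its SEs rest mostly on spread pooled over types. The edgeR SEs were calculated back from each log2 fold and its test statistic, so setting a fold against its SE restates the test. Exact permutation and Clopper-Pearson intervals used scipy 1.17.1. The tests were first tested on simulated data. Alternatives used DESeq2 1.42.0, TMM factors, other cell filters and each library left out. The types set beside Ependymal cells were Tanycytes, Astrocytes, OPC and COP, with the next highest type for a score, and any other type named was chosen after its values were seen. Members and lists were chosen with earlier results of these data known. The Ependymal_2 fit of the G2/M score, the narrow UMI ranges and the totals without Astrocytes were added after the data were seen.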

Additional observations from a re-analysis of the deposited data

Results flagged for a closer look

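In 138 groups of 4 libraries, the library at either end was compared with the rest by Dixon's test, and 11 values stood apart. Chance alone does this in about 1 in 20 groups. The groups shared libraries, and the Ependymal and Ependymal_1 measures shared most of their cells, so these values are not independent of each other. The male CMS control library gave 5 of them. Its Ependymal share was 4.95% among male libraries (others 7.69 to 8.03%), its Ependymal_1 share 4.18% (others 6.90 to 7.33%), and its share of Ependymal cells with a G2/M score above 0 was 90.4% (others 85.2 to 85.6%). Its Ependymal_1 cells had a median of 4567 UMIs among male libraries (others 3679 to 3800) and of 2230 genes among CMS libraries (others 1830 to 1886). This library also had the fewest Ependymal cells, 187.

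The male baseline ARS library had the lowest Ependymal_2 share of Ependymal cells among stressed libraries, 6.02% (others 13.2 to 14.1%), and its Ependymal_1 mean S score of 0.00371 stood above the other baseline libraries (-0.00234 to -0.00133). The male CMS stressed library had a mean Ependymal doublet score of 1.22 among male libraries (others 1.10 to 1.11) and an Ependymal_1 score of 1.41 among stressed libraries (others 1.18 to 1.20). The female CMS control library had an Ependymal_1 doublet score of 1.31 among female libraries (others 1.20 to 1.22). The male baseline control library had a mean Ependymal G2/M score of 0.0470 among baseline libraries (others 0.0535 to 0.0546).

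For 2 flagged shares every pair of one group moved one way and every pair of the other group the opposite way. The difference was not tested. Other measures that were not flagged split in the same way. Among them were the mean Ependymal G2/M score by cohort, and Ependymal median genes and mean doublet score by sex. With so few pairs, such a split can easily arise by chance. Each group held only 2 pairs, and the values in brackets are those of its 2 pairs, not intervals. The stressed-minus-control difference in the Ependymal_2 share of Ependymal cells was 0.889 percentage points in females (0.353 to 1.42) and -2.43 in males (-3.49 to -1.37). That in the share of Ependymal cells with a G2/M score above 0 was -5.51 points in the CMS cohort (-5.81 to -5.22) and 1.03 in the baseline cohort (0.0553 to 2.01).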

How the results depend on the processing

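Of 789 alternative values of 53 results, 684 kept their direction and side of the threshold. No share test passed the threshold in any of 270 alternatives. Directions that turned belonged, in each case, to values that were not called. The cause of a change was not tested. Ependymal_2 had 18 to 55 cells a library, which limits the precision of its values.

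Shares of all cells (log2). DESeq2 gave 0.0098 for Ependymal by cohort. With Astrocytes left out, the cohort difference of the stress effect was -0.011 for Ependymal and -0.024 for Ependymal_1, and Ependymal_2 gave -0.029 for stress and 0.23 for sex by stress. limma on log odds gave Ependymal_2 -0.011 for stress and 0.042 for sex by stress, and TMM factors 0.00059 for the latter. In cells with at least 1000 UMIs, Ependymal_2 gave -0.12 for stress and -0.020 for cohort. In cells with under 10% mitochondrial UMIs it gave -0.0083 for stress, -0.27 for cohort and -0.13 for cohort by stress.

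Matched pairs as a replicate block moved Ependymal_2 by sex by stress to 0.00048 and ended the call of its G2/M score by stress (-0.0114, limma adjusted p = 0.129). The block changed no other call. Library numbers are not in the labels, so the pairs rest on sex, cohort and exposure.

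Measures. In Ependymal_2 cells only, UMIs gave 0.11 for stress and -0.21 for sex by stress, and genes 0.077 for stress, 0.0030 for sex and -0.087 for sex by stress (log2). There the mitochondrial percent gave 0.198 for sex, 4.12 for cohort and 0.904 for sex by stress, the doublet score 0.229, the S score 0.00991 and the G2/M score 0.00250 for sex by stress. The G2/M score in these cells gave -0.0114 for stress, 0.0145 for sex and 0.00786 for cohort. Genes by cohort gave 0.0034 with under 10% mitochondrial UMIs and 0.0053 in Ependymal_1. The mitochondrial percent by cohort lost its call at 0.400 (at least 1000 UMIs), 0.356 (under 10% mitochondrial UMIs) and 0.405 (Ependymal_1), with limma adjusted p from 0.00224 to 0.175 over all its alternatives. The doublet score by stress gave -0.0290 as a median and -0.00748 in Ependymal_1. The G2/M score by cohort gave 0.000390 with under 10% mitochondrial UMIs and 0.000868 with cells weighted to 1 mix of UMI bins. The G2/M difference between clusters was 0.0227 from 1000 to under 2000 UMIs. The share of cells with a score above 0 gave -0.364 by sex with at least 1000 UMIs, and the share above 0.1 gave -1.99 by cohort.

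Leaving out each library in turn gave these ranges. For stress, the log2 share of all cells was -0.027 to 0.26 for Ependymal, -0.033 to 0.29 for Ependymal_1 and -0.19 to 0.23 for Ependymal_2. By sex these were -0.22 to 0.057, -0.26 to 0.020 and -0.030 to 0.43. By cohort and stress they were -0.24 to 0.54, -0.29 to 0.58 and -0.23 to 0.88, and by sex and stress Ependymal_2 gave -0.58 to 0.69. The log2 odds of Ependymal_2 among Ependymal cells gave -0.272 to 0.023 for stress, -0.022 to 0.484 for sex and 0.333 to 0.770 for cohort. The last was 0.585 with all libraries, 0.00747 with under 10% mitochondrial UMIs and 0.208 with at least 1000 UMIs. The share above 0 gave -0.346 to 0.331 by sex. UMIs gave -0.10 to 0.029 for stress, -0.13 to 0.0065 for cohort and -0.017 to 0.33 for sex by stress, and genes -0.083 to 0.012 for stress and -0.080 to 0.016 for cohort (log2). The mitochondrial percent by cohort was 0.377 to 0.555, and the doublet score by stress -0.0218 to 0.0307. The S score gave -0.000152 to 0.00227 by sex and -0.00223 to 0.000192 by cohort. The G2/M score gave -0.000661 to 0.00422 by sex, -0.00366 to 0.000989 by cohort and -0.00856 to 0.00447 by sex and stress. For Ependymal_2 it was -0.0135 to -0.00994 by stress and 0.0129 to 0.0166 by sex. Pearson's r was -0.279 to 0.135 against the Tanycyte share and -0.0611 to 0.587 for score against UMIs.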
